A study of Mus musculus with 13 samples.

Results

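DNA replication genes encode the proteins that license and fire origins, unwind and copy DNA, join the new strands, supply deoxynucleotides and place histones on the new DNA. The members here are the rows of the count table with 44 fixed gene symbols, of 23366 genes in the table, and all 44 passed the filter on low counts that left 16537 genes for testing. The rule uses gene symbols and no measured value. They were divided by textbook role into 8 sets: origin licensing and firing (8 genes), the MCM helicase with GINS (10), polymerases and primase (9), the clamp and its loader (6), the single-stranded DNA binding complex RPA (3), Okazaki fragment joining (2), nucleotide synthesis (4) and the histone chaperone CAF-1 (2).

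The study set dICR/dICR mouse muscle cells, which lack the imprinting control region between Igf2 and H19 on both chromosomes, against wild-type cells, all of mixed strain. Myoblasts were primary cells of hind limb muscle from 2- to 3-day-old pups, grown with 10% calf serum and fibroblast growth factor. Myotubes had spent 24 hours in low serum (1% horse serum). There were 2 libraries of dICR/dICR myotubes, 2 of dICR/dICR myoblasts, 5 of wild-type myotubes and 4 of wild-type myoblasts, all of total RNA depleted of ribosomal RNA. The labels name no Cre or promoter for the deletion, and they leave unsaid if each library stands for its own animal or culture and if cells were pooled. The p-values therefore measure only the spread between these libraries.

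In proliferating cells, the origin recognition complex, Cdc6 and Cdt1 load the MCM helicase onto origins, and the Cdc7 kinase with Dbf4, Mcm10 and the GINS complex turn it into a running helicase. Many of these genes are transcribed around the start of S phase under the control of E2F factors. Myoblasts leave the cell cycle for good before they fuse, and shutdown of replication genes is a textbook feature of that exit.

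A library held between 5.31 and 56.44 M (mega) counts, and the totals fell into 7 libraries above and 6 below 20 M, called here the deep and the shallow set. Both dICR/dICR myotubes were deep and both dICR/dICR myoblasts shallow, whereas wild-type myotubes 1 to 3 and wild-type myoblasts 1 and 2 were deep and the other wild-type libraries shallow. The labels name 2 sequencing platforms without saying which library was run on which. H19, the gene beside the deletion, stood at 52.4 to 71.5 CPM where the region was deleted, against 2345 to 40500 CPM in wild type. CPM is the count scaled to a common library total after adjustment by TMM factors. The Y-linked gene Ddx3y ranged from 14.5 to 176.1 CPM, except in the 4 wild-type libraries of the shallow set, which had 0.153 to 0.462 CPM. Muscle identity genes were present in every library, with a summed level of the 7 genes of 4410 and 6389 CPM in dICR/dICR myotubes, 2492 and 2259 CPM in dICR/dICR myoblasts, 5834 to 8409 CPM in wild-type myotubes and 2410 to 4651 CPM in wild-type myoblasts. Among markers of other cells, the summed level of the 8 fibroblast genes was 127.7 to 350.2 CPM in dICR/dICR libraries and 299.2 to 963.4 CPM in wild-type ones, that of 5 endothelial genes at most 6.13 CPM, of 5 macrophage and leukocyte genes at most 13.7 CPM and of 4 Schwann cell genes at most 8.42 CPM. In each library 0 to 3 of the 8 fibroblast genes, 0 to 3 of the 5 endothelial genes and 0 or 1 gene of the last 2 lists had no count.

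Averaged over the 44 replication genes, the mean log2 CPM was 6.08 and 5.07 in dICR/dICR myotubes 1 and 2 and 6.13 and 6.44 in dICR/dICR myoblasts 1 and 2. It was 3.44, 4.93, 2.53, 2.98 and 2.66 in wild-type myotubes 1 to 5, and 6.20, 6.22, 5.21 and 5.07 in wild-type myoblasts 1 to 4. Both dICR/dICR myotube libraries therefore lay above all 5 wild-type myotube libraries, and dICR/dICR myotube 1 lay among the myoblasts. Wild-type myotube 2 stood above the other 4 wild-type myotubes, and the shallow wild-type myoblasts 3 and 4 lay under the deep myoblasts 1 and 2. The genes together took 0.0435 to 0.623% of all counts in a library. In bulk RNA, fewer cells of a type and less RNA per cell cannot be told apart, so a lower level here may be either.

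**Figure D1:**
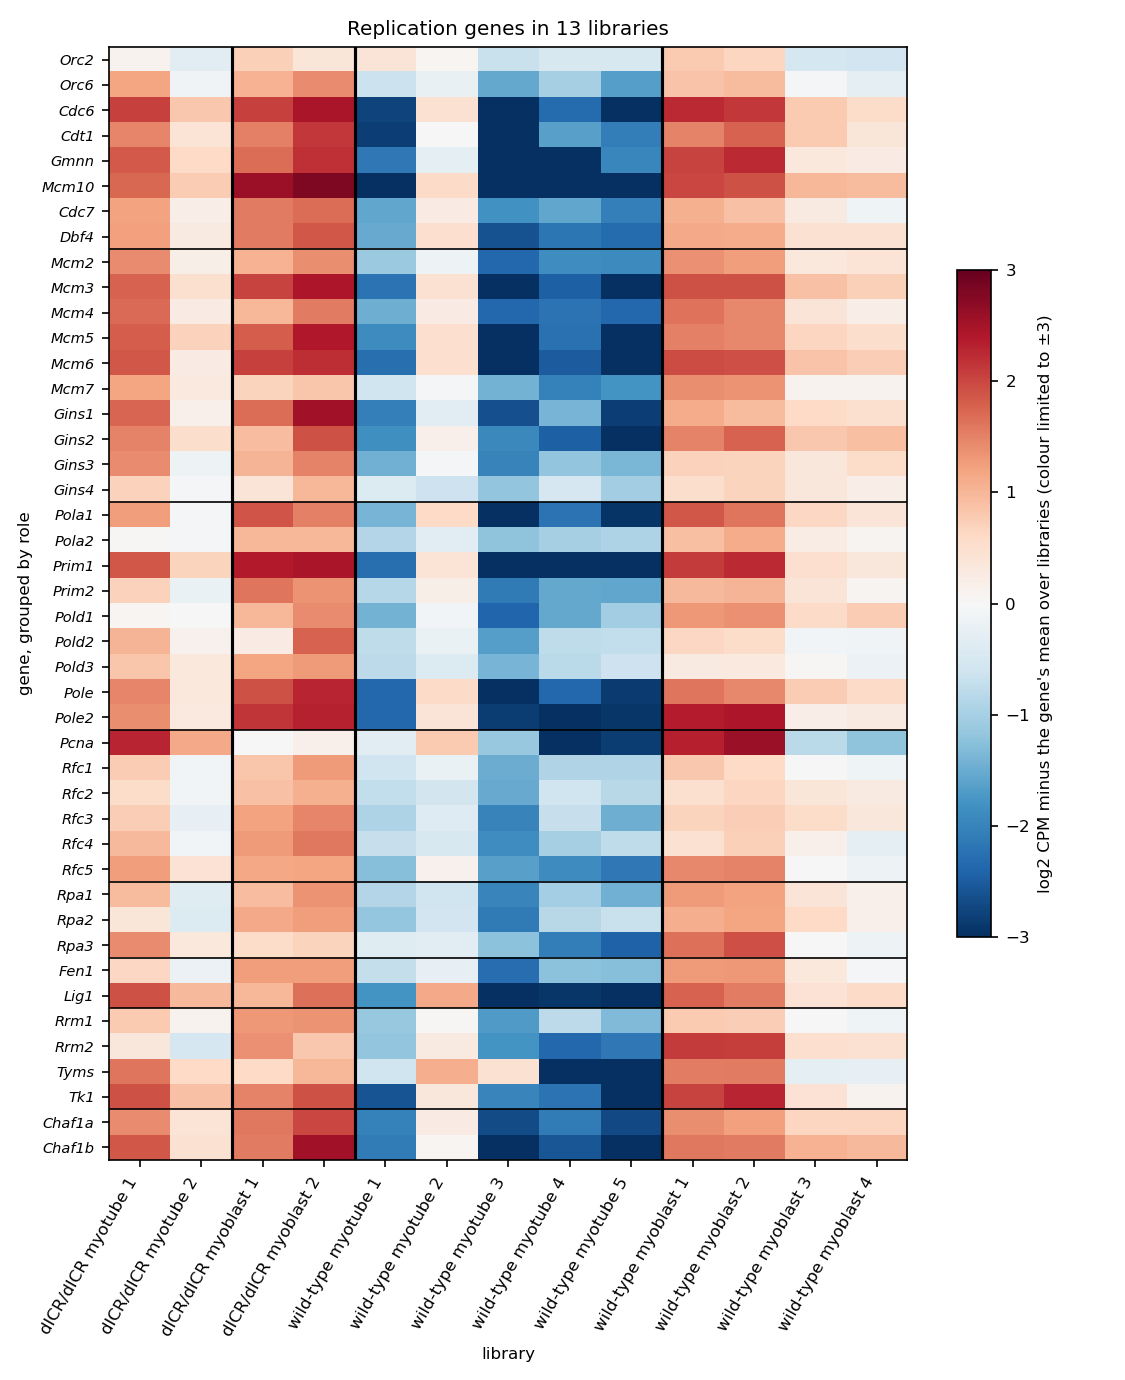
Level of each of the 44 replication genes (rows, in order of role, with lines between roles) in each of the 13 libraries (columns, with lines between groups), as log2 CPM minus the gene's mean over libraries, red above and blue below that mean, colours limited to 3 in either direction. Most rows are red in dICR/dICR myotube 1, both dICR/dICR myoblasts and wild-type myoblasts 1 and 2, pale in dICR/dICR myotube 2 and wild-type myotube 2, and blue in wild-type myotubes 1, 3, 4 and 5.

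Because the members share a pattern over the libraries, the sequence before their start sites was read for the words of factors that act on cell cycle genes. RefSeq windows of build GRCm38.p6, from 250 bases before to 50 after a start site, were at hand for 36 of the 44 members. An E2F word (TTCCCGC or TTGGCGC or TTGGCGG, on either strand) stood in a window of 25 of these 36 genes, 69.4%, against 10.3% of all 27025 genes with a window and 13.4% of the 16369 genes with a window that the count table holds. A CCAAT box stood in 58.3% of the members and 41.1% of all genes, and the cell cycle homology word (TTTGAA or TTCGAA) in 22.2% of the members and 21.7% of all genes. The median log2 fold change of differentiation in wild type was -1.99 in the 25 members with an E2F word and -1.99 in the 11 without, and that of the genotype effect in myotubes was 1.83 with the word and 1.92 without. A match describes these letters only and is no evidence that a factor binds there.

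The 180 bases before the start sites of 5 members are shown, 4 with E2F words (capitals) from the helicase, primase, reductase and CAF-1 and Pcna, which has none in this window. Mcm6 is at chr1:128359706-128359885 (minus strand), Prim1 at chr10:128015035-128015214 (plus), Rrm1 at chr7:102441515-102441694 (plus), Chaf1a at chr17:56040236-56040415 (plus) and Pcna at chr2:132253181-132253360 (minus), each written 5′ to 3′ on the strand of its gene. In Prim1 and Chaf1a the capitals are 2 words that overlap, TTCCCGC and the reverse complement of TTGGCGG. Relative to the start site, the words begin at -109 and -46 in Mcm6 and at -15 and -12 in Prim1. They begin at -67 in Rrm1 and at -47 and -44 in Chaf1a, and Mcm6 holds TTGGCGC at both places.
Mcm6: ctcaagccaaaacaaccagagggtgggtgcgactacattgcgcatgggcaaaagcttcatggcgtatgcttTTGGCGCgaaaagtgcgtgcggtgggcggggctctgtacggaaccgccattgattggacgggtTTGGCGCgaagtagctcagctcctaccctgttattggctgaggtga
Prim1: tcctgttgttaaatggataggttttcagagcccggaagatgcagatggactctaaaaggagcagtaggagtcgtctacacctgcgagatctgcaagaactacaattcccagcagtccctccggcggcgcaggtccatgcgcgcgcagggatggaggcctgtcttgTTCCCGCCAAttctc
Rrm1: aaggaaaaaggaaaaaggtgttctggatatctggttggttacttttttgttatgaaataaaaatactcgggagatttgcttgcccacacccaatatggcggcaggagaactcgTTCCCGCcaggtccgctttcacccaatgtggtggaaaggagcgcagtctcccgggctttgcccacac
Chaf1a: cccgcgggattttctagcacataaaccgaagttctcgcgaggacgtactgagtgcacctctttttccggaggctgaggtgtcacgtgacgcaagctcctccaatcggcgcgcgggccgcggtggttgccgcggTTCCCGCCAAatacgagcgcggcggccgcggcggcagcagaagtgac
Pcna: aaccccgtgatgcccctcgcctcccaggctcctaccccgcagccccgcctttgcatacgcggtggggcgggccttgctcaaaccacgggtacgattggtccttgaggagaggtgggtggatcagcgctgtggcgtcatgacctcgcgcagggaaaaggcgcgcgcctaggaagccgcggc

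The first question was how replication genes behave when wild-type myoblasts become myotubes. Changes on differentiation are given as myotubes minus myoblasts and genotype effects as dICR/dICR minus wild type, both on the log2 scale with the standard error (SE) of the fit. Of the 44 genes, 39 fell and 0 rose at an adjusted p under 0.05 (edgeR quasi-likelihood test with Benjamini-Hochberg adjustment over all 16537 genes), where 10.2% of all genes fell and 19.1% changed in either direction. All 44 had a negative log2 fold change, with a median of -2.07 against 0.02 over all genes, between -3.22 for Gmnn and -0.39 for Orc2. The 5 that did not pass were Orc2, Pold2, Pcna, Lig1 and Tyms. In 28 of the 44 genes every wild-type myotube library lay under every wild-type myoblast library, where 9.91% of all genes showed that pattern. Without wild-type myotube 2, 42 of 44 fell (13% of all genes) and the median was -2.61. Without wild-type myoblast 2, 19 fell (6.26% of all genes), and without wild-type myoblast 1, 20 fell (6.46% of all genes). With only the shallow wild-type libraries read within a model of all 13, 9 fell (3.25% of all genes).

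The second question was whether the deletion changes these genes in myotubes. All 44 had a positive log2 fold change, with a median of 1.91 against -0.06 over all genes, but Pold3 alone rose at an adjusted p under 0.05 (edgeR), where 0.333% of all genes rose and 0.556% changed in either direction. At an unadjusted p under 0.05 there were 41 members and 16.8% of all genes. In 32 of the 44 genes both dICR/dICR myotubes lay above all 5 wild-type myotubes, where 10.5% of all genes did; the other 12 were Orc2, Cdc7, Dbf4, Mcm6, Gins3, Pola1, Prim2, Pole, Pole2, Lig1, Rrm2 and Tyms. The count of called genes differed between tools and between sets of libraries. With all 13 libraries kept, 22 members rose with DESeq2 (2.49% of all genes) and 10 with limma voom (1.61% of all genes). Without wild-type myotube 2, 34 of 44 rose with edgeR (4.59% of all genes), with a median of 2.53; the count with any 1 of the other libraries left out was 0. The 10 that did not pass without wild-type myotube 2 were Orc2, Gins4, Pola2, Pold2, Pcna, Rpa2, Rpa3, Fen1, Rrm2 and Tyms.

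Wild-type myotube 2 held the highest value of the 5 wild-type myotubes in 42 of 44 genes, with a median of 1.13 log2 units above the highest of the other 4. dICR/dICR myotube 2 exceeded it in 32 of 44 genes, by a median of 0.18 log2 units. Against the highest of wild-type myotubes 1, 3, 4 and 5, dICR/dICR myotube 2 was higher in 43 of 44 genes, by a median of 1.31. The 2 dICR/dICR myotubes differed too, with library 1 above library 2 in all 44 genes by a median of 1.00 log2 units. Set against the mean of the deep wild-type myoblasts 1 and 2, the median difference was -0.09 for dICR/dICR myotube 1, -1.10 for dICR/dICR myotube 2 and -1.33 for wild-type myotube 2. These differences between single libraries have no test. They were not computed over all genes, so whether they are particular to the members is not known.

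Muscle differentiation genes were read in the same libraries. Of 15 listed, 14 were in the table, among them Myog, the factor that starts terminal differentiation, and Ckm, muscle creatine kinase. The 14 also include Cdkn1a, Cdkn1c, Cdkn2d and Rb1, which act in exit from the cell cycle and are not muscle genes. In wild-type differentiation 9 of the 14 rose, where 8.86% of all genes did, and 0 fell, with a median of 2.09, and in the genotype effect in myotubes 0 passed, with a median of -1.18 (edgeR). Their summed level was 13100 and 25160 CPM in dICR/dICR myotubes 1 and 2, 4815 and 2281 CPM in dICR/dICR myoblasts, 42020, 31960, 47870, 40800 and 52820 CPM in wild-type myotubes 1 to 5, and 3621, 3523, 13460 and 14060 CPM in wild-type myoblasts 1 to 4. The libraries with the lowest sums among myotubes, both dICR/dICR and then wild-type myotube 2, were those with the highest replication gene levels. By mean log2 CPM of the 14 genes, both dICR/dICR myotubes were again lowest (8.29 and 8.99). Wild-type myotube 1 (9.34) then lay under wild-type myotube 2 (9.39), although its replication genes were lower. The shallow wild-type myoblasts had higher sums than the deep ones. The mean log2 CPM of the 8 fibroblast markers was 2.41 and 1.73 in dICR/dICR myotubes 1 and 2, against 1.96, 2.70, 3.26, 2.83 and 2.21 in wild-type myotubes 1 to 5. Wild-type myotube 2 had the highest sum of these markers, 963.4 CPM, of which Col3a1, a collagen gene, gave 888.5 CPM, but not the highest mean. The part of differentiation state and of other cells in the replication gene levels was not tested.

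**Figure D2:**
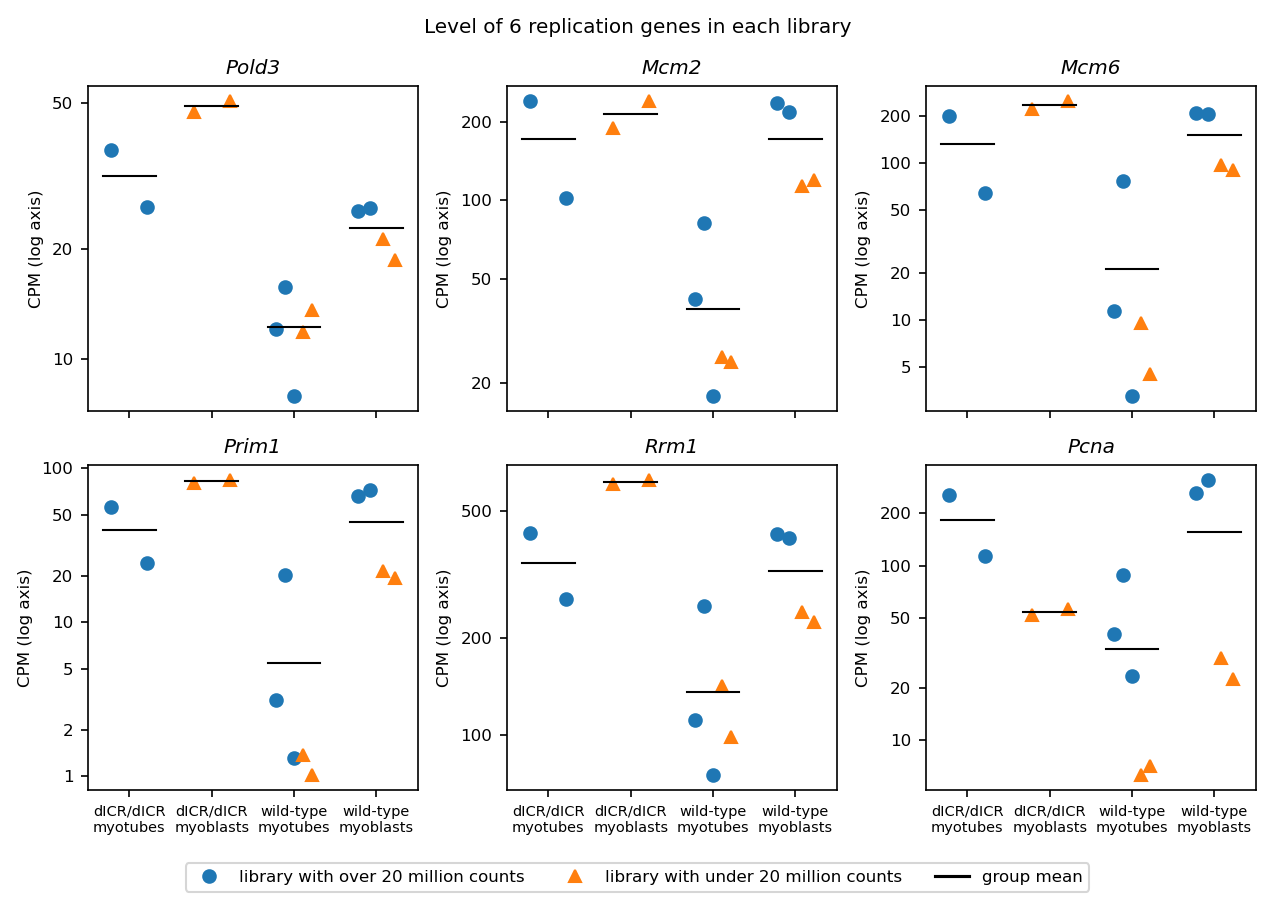
CPM (log axis) of 6 replication genes in each library of the 4 groups, with circles for libraries above and triangles for libraries below 20 M counts and a line at the group mean. In Pold3 the dICR/dICR myotubes stand clear of all wild-type myotubes, in Mcm6 wild-type myotube 2 lies above dICR/dICR myotube 2, and in Pcna the triangles of each wild-type group lie under its circles.

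Among the licensing and firing genes, 7 of 8 fell in wild-type differentiation, with a role median of -2.29, and the role median of the genotype effect in myotubes was 2.21. Gmnn encodes geminin, which binds Cdt1 and blocks relicensing of origins. It had 40.8 and 16.9 CPM in dICR/dICR myotubes, against 2.48, 9.16, 0.986, 1.08 and 2.85 CPM in wild-type myotubes. In myoblasts it had 36.0 and 51.5 CPM in dICR/dICR cells, against 46.5, 52.8, 13.9 and 13.5 CPM in wild-type cells. Both dICR/dICR myotubes lay above all wild-type myotubes, while the dICR/dICR myoblasts lay between the shallow and the deep wild-type myoblasts or, for library 2, among the deep ones. Gmnn fell by 3.22 ± 0.68 (SE) on the log2 scale in wild-type differentiation (adjusted p = 0.00816, edgeR). Its genotype effect in myotubes, 3.08 ± 0.76, was the highest of all members and did not pass (adjusted p = 0.088, edgeR).

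Orc2, a subunit of the origin recognition complex that cells also keep outside S phase, behaved least like the list. It had 90.9 and 67.8 CPM in dICR/dICR myotubes, against 112, 88.1, 53.2, 60.6 and 60.5 CPM in wild-type myotubes, and these groups overlapped. It had 140 and 109.9 CPM in dICR/dICR myoblasts, against 144, 131, 58.6 and 57.1 CPM in wild-type myoblasts. Neither differentiation in wild type (-0.39 ± 0.33, adjusted p = 0.445) nor the genotype effect in myotubes (0.08 ± 0.40, adjusted p = 0.932) passed in edgeR, and both signs turned in some alternatives. Of its annotated exon bases 29.8% are shared with Nif3l1 on the opposite strand, and whether the counting used strand is not known here. Cdc6 and Cdt1, the loaders of the helicase, were chosen after their values were seen. Cdc6 had 58.5 and 24.5 CPM in dICR/dICR myotubes, against 1.98, 19.4, 0.769, 2.77 and 0.611 CPM in wild-type myotubes. Cdt1 had 66.9 and 32.7 CPM in dICR/dICR myotubes, against 3.35, 24.3, 2.26, 7.85 and 5.70 CPM in wild-type myotubes. For both genes the dICR/dICR myotubes lay above every wild-type myotube, and wild-type myotube 2 stood far above the other 4.

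All 10 genes of the MCM helicase and GINS fell in wild-type differentiation (role median -2.31), and their median genotype effect in myotubes was 2.40. Mcm2 is a subunit of the helicase ring. It had 241 and 102 CPM in dICR/dICR myotubes, against 42.0, 82.2, 17.7, 25.1 and 24.0 CPM in wild-type myotubes. It had 189 and 241 CPM in dICR/dICR myoblasts, against 238, 218, 114 and 120.3 CPM in wild-type myoblasts. The myotube groups did not overlap, and dICR/dICR myotube 1 reached the level of the deep wild-type myoblasts. Mcm2 fell by 2.17 ± 0.46 in wild-type differentiation (adjusted p = 0.00757, edgeR), while its genotype effect in myotubes of 2.17 ± 0.52 did not pass (adjusted p = 0.0843, edgeR).

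The fitted changes differed between subunits of the ring, without a test of that difference. Mcm3 to Mcm6 were chosen after their values were seen. Mcm6, whose promoter is printed above, had 199.9 and 65.0 CPM in dICR/dICR myotubes, against 11.3, 76.8, 3.25, 9.54 and 4.48 CPM in wild-type myotubes. Wild-type myotube 2 exceeded dICR/dICR myotube 2 for this gene. Without wild-type myotube 2 the log2 fold change of differentiation in wild type was -4.38 for Mcm3 and -4.38 for Mcm6, -3.72 for Mcm5, -3.08 for Mcm4, -2.64 for Mcm2 and -2.20 for Mcm7. Mcm7, another ring subunit, had 198 and 106 CPM in dICR/dICR myotubes, against 57.1, 83.0, 32.2, 21.2 and 24.9 CPM in wild-type myotubes. It had 137 and 154 CPM in dICR/dICR myoblasts, against 226, 221, 92.3 and 92.2 CPM in wild-type myoblasts. The dICR/dICR myotubes lay above all wild-type myotubes, and the dICR/dICR myoblasts between the shallow and the deep wild-type ones. Mcm7 fell by 1.85 ± 0.44 in wild-type differentiation (adjusted p = 0.0141, edgeR). Gins1, a GINS subunit, had 21.0 and 6.96 CPM in dICR/dICR myotubes, against 1.45, 4.94, 0.938, 2.31 and 0.815 CPM in wild-type myotubes. It fell by 2.36 ± 0.52 in wild-type differentiation (adjusted p = 0.00949, edgeR), with a myotube genotype effect of 2.70 ± 0.59 (adjusted p = 0.0654, edgeR).

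Of the polymerase and primase genes, 8 of 9 fell in wild-type differentiation, with a role median of -2.15, and the median genotype effect in myotubes was 1.40. Pold3 encodes an accessory subunit of polymerase delta, which copies the lagging strand. It had 37.3 and 26.0 CPM in dICR/dICR myotubes, against 12.0, 15.7, 7.91, 11.8 and 13.7 CPM in wild-type myotubes. It had 47.3 and 50.8 CPM in dICR/dICR myoblasts, against 25.3, 25.8, 21.3 and 18.7 CPM in wild-type myoblasts. In both cell types the dICR/dICR libraries lay above every wild-type library. Pold3 rose by 1.38 ± 0.25 on the log2 scale in dICR/dICR myotubes (adjusted p = 0.0393, edgeR), and it fell by 0.90 ± 0.22 in wild-type differentiation (adjusted p = 0.0138, edgeR). Its genotype effect in myotubes kept its direction, at 1.09 to 1.61, when each of the 13 libraries was left out in turn, but it passed only when that library was wild-type myotube 2 and not when any of the other 12 was left out.

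Prim1, the catalytic subunit of primase, which starts each new strand, shows how far wild-type myotube 2 can stand from the rest of its group. It had 55.8 and 24.1 CPM in dICR/dICR myotubes, against 3.12, 20.3, 1.32, 1.39 and 1.02 CPM in wild-type myotubes. It had 80.4 and 84.0 CPM in dICR/dICR myoblasts, against 66.3, 72.5, 21.6 and 19.3 CPM in wild-type myoblasts. Wild-type myotubes 3, 4 and 5 lay lowest of all libraries and wild-type myotube 2 close under dICR/dICR myotube 2. Prim1 fell by 2.99 ± 0.85 in wild-type differentiation (adjusted p = 0.0286, edgeR), and its genotype effect in myotubes of 2.82 ± 0.94 did not pass (adjusted p = 0.179, edgeR). Pola1 and Pola2 are subunits of the polymerase bound to primase, and Pold1 is the catalytic subunit of polymerase delta. Pola2 fell by 1.49 ± 0.25 in wild-type differentiation, with the lowest adjusted p of all members (0.00281, edgeR), and Pold1 fell by 2.15 ± 0.38 (adjusted p = 0.0036, edgeR). Pola1 fell by 2.33 ± 0.71 (adjusted p = 0.0395, edgeR), and its groups overlapped in the myotube comparison, with 76.2 and 30.4 CPM in dICR/dICR myotubes, against 12.0, 48.3, 3.58, 6.77 and 4.07 CPM in wild-type myotubes.

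For the clamp and its loader, 5 of 6 genes fell in wild-type differentiation (role median -1.42), and the median genotype effect in myotubes was 1.38. Pcna encodes the sliding clamp that holds polymerases on DNA. It had 252 and 113 CPM in dICR/dICR myotubes, against 40.8, 89.0, 23.4, 6.31 and 7.13 CPM in wild-type myotubes. It had 52.4 and 56.8 CPM in dICR/dICR myoblasts, against 262, 309.9, 29.6 and 22.4 CPM in wild-type myoblasts. The shallow wild-type libraries lay far below the deep ones of the same cell type, and both dICR/dICR myotubes lay above all wild-type myotubes. Neither wild-type differentiation (-2.22 ± 0.89, adjusted p = 0.101) nor the genotype effect in myotubes (2.44 ± 1.01, adjusted p = 0.259) passed in edgeR over all libraries. Within the deep set, in a model of all 13 libraries, the myotube genotype effect came to 1.84 ± 0.45 and passed (adjusted p = 0.0481, edgeR). In a fit of the deep libraries alone no gene rose (0% of all genes). The reference annotation lists pseudogenes of Pcna, and reads shared with such copies would make its counts uncertain.

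The loader genes Rfc1 to Rfc5 encode the complex that opens the clamp and places it on DNA. Rfc2 had 61.2 and 39.4 CPM in dICR/dICR myotubes, against 25.0, 28.4, 14.5, 27.6 and 23.2 CPM in wild-type myotubes. It had 77.3 and 87.3 CPM in dICR/dICR myoblasts, against 58.0, 65.1, 53.8 and 50.4 CPM in wild-type myoblasts. Its wild-type libraries differed little between depth sets, and neither pair of dICR/dICR libraries overlapped the wild-type libraries of the same cell type. Rfc2 fell by 1.26 ± 0.21 in wild-type differentiation (adjusted p = 0.00285, edgeR), and in myotubes its genotype effect stood at 1.09 ± 0.25 (adjusted p = 0.0815, edgeR). Rfc1, the large subunit, fell by 1.13 ± 0.29 (adjusted p = 0.0193, edgeR), and the genotype effect in myotubes came to 1.16 ± 0.35 (adjusted p = 0.136, edgeR).

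RPA coats single-stranded DNA in replication and in repair. All 3 subunit genes fell in wild-type differentiation (role median -1.95), and the median genotype effect in myotubes was 1.55. Rpa1, the large subunit, had 273 and 109 CPM in dICR/dICR myotubes, against 76.7, 92.5, 35.6, 69.4 and 51.9 CPM in wild-type myotubes. It had 266 and 359 CPM in dICR/dICR myoblasts, against 344, 327, 184 and 156 CPM in wild-type myoblasts. The myotube groups did not overlap, and the dICR/dICR myoblasts lay among the wild-type ones or just above them. Rpa1 fell by 1.95 ± 0.36 (adjusted p = 0.00435, edgeR), Rpa2 by 1.81 ± 0.32 (adjusted p = 0.00354, edgeR) and Rpa3 by 2.18 ± 0.54 (adjusted p = 0.0165, edgeR) on the log2 scale in wild-type differentiation. Rpa3, the small subunit, had 30.3 and 14.0 CPM in dICR/dICR myotubes, against 8.76, 8.82, 4.76, 2.62 and 2.04 CPM in wild-type myotubes. Its shallow wild-type libraries lay under the deep ones, as for Pcna.

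Fen1 trims the flap at the end of an Okazaki fragment and Lig1 seals the nick that remains. Fen1 had 69.7 and 39.6 CPM in dICR/dICR myotubes, against 27.1, 37.9, 9.16, 19.1 and 18.3 CPM in wild-type myotubes. It fell by 1.83 ± 0.40 in wild-type differentiation (adjusted p = 0.00922, edgeR), with a myotube genotype effect of 1.29 ± 0.47 (adjusted p = 0.206, edgeR). The dICR/dICR myotubes lay above all wild-type myotubes, the lower of them close to wild-type myotube 2. Lig1 had 63.8 and 33.0 CPM in dICR/dICR myotubes, against 4.80, 37.2, 1.88, 2.15 and 1.83 CPM in wild-type myotubes. In the myoblasts Lig1 had 34.1 and 53.2 CPM in dICR/dICR cells, against 57.8, 49.6, 22.9 and 25.1 CPM in wild-type cells. Wild-type myotube 2 exceeded dICR/dICR myotube 2 here, and the other 4 wild-type myotubes were all under 5 CPM. Neither its change in wild-type differentiation (-1.99 ± 0.84, adjusted p = 0.117) nor its genotype effect in myotubes (2.30 ± 0.96, adjusted p = 0.261) passed in edgeR.

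The nucleotide synthesis genes supply deoxynucleotides: Rrm1 and Rrm2 form ribonucleotide reductase, Tyms makes thymidylate and Tk1 salvages thymidine. Of these 4 genes, 3 fell in wild-type differentiation (role median -1.92), and the median genotype effect in myotubes was 1.36. Rrm1 had 424 and 264 CPM in dICR/dICR myotubes, against 111, 253, 74.9, 142 and 98.6 CPM in wild-type myotubes. It had 604 and 623 CPM in dICR/dICR myoblasts, against 422, 409.5, 242 and 224 CPM in wild-type myoblasts. Both dICR/dICR groups lay above all wild-type libraries of their cell type, dICR/dICR myotube 2 by a small margin over wild-type myotube 2. Rrm1 fell by 1.26 ± 0.35 in wild-type differentiation (adjusted p = 0.0277, edgeR), and in myotubes its genotype effect stood at 1.34 ± 0.42 (adjusted p = 0.149, edgeR). Rrm2, the small and cell cycle regulated subunit, had 139 and 78.2 CPM in dICR/dICR myotubes, against 48.8, 133, 31.6, 21.7 and 24.9 CPM in wild-type myotubes. It fell by 2.58 ± 0.58 in wild-type differentiation (adjusted p = 0.0103, edgeR), and its myotube groups overlapped.

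Tk1 had 60.1 and 29.4 CPM in dICR/dICR myotubes, against 2.59, 20.5, 4.04, 3.39 and 0.611 CPM in wild-type myotubes. It fell by 2.83 ± 0.78 in wild-type differentiation (adjusted p = 0.0252, edgeR), and the genotype effect in myotubes came to 2.79 ± 0.87 (adjusted p = 0.15, edgeR). Its myotube groups did not overlap. Tyms had 76.9 and 38.8 CPM in dICR/dICR myotubes, against 16.8, 54.3, 35.1, 1.85 and 2.04 CPM in wild-type myotubes. In the myoblasts Tyms had 38.2 and 51.3 CPM in dICR/dICR cells, against 73.6, 75.4, 21.2 and 21.4 CPM in wild-type cells. Its shallow wild-type libraries were lowest in both cell types, and neither wild-type differentiation (-1.11 ± 0.82, adjusted p = 0.378) nor the genotype effect in myotubes (1.37 ± 0.97, adjusted p = 0.484) passed in edgeR. A transcribed pseudogene, Tyms-ps, has its own row in the table with 159 counts summed over all libraries.

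CAF-1 places histones behind the fork, and both its genes fell in wild-type differentiation, with a role median of -2.62 and a median genotype effect in myotubes of 2.62. Chaf1a, the large subunit, had 86.7 and 43.0 CPM in dICR/dICR myotubes, against 7.92, 38.8, 4.98, 7.54 and 4.89 CPM in wild-type myotubes. It had 97.1 and 131 CPM in dICR/dICR myoblasts, against 85.2, 75.8, 50.6 and 50.7 CPM in wild-type myoblasts. The myotube groups did not overlap, and the dICR/dICR myoblasts lay above all wild-type myoblasts. Chaf1a fell by 2.34 ± 0.58 in wild-type differentiation (adjusted p = 0.0168, edgeR) and Chaf1b by 2.90 ± 0.69 (adjusted p = 0.0138, edgeR). Their genotype effects in myotubes were 2.32 ± 0.66 for Chaf1a (adjusted p = 0.125, edgeR) and 2.92 ± 0.77 for Chaf1b (adjusted p = 0.101, edgeR). Of the annotated exon bases of Chaf1a 52.5% are shared with Ubxn6 on the opposite strand. There are 14 members that share exon bases with another gene, and for 7 of them (Orc2, Gins2, Rfc2, Rfc4, Rfc5, Fen1 and Chaf1a) it is over 10% of their exon bases.

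**Figure D3:**
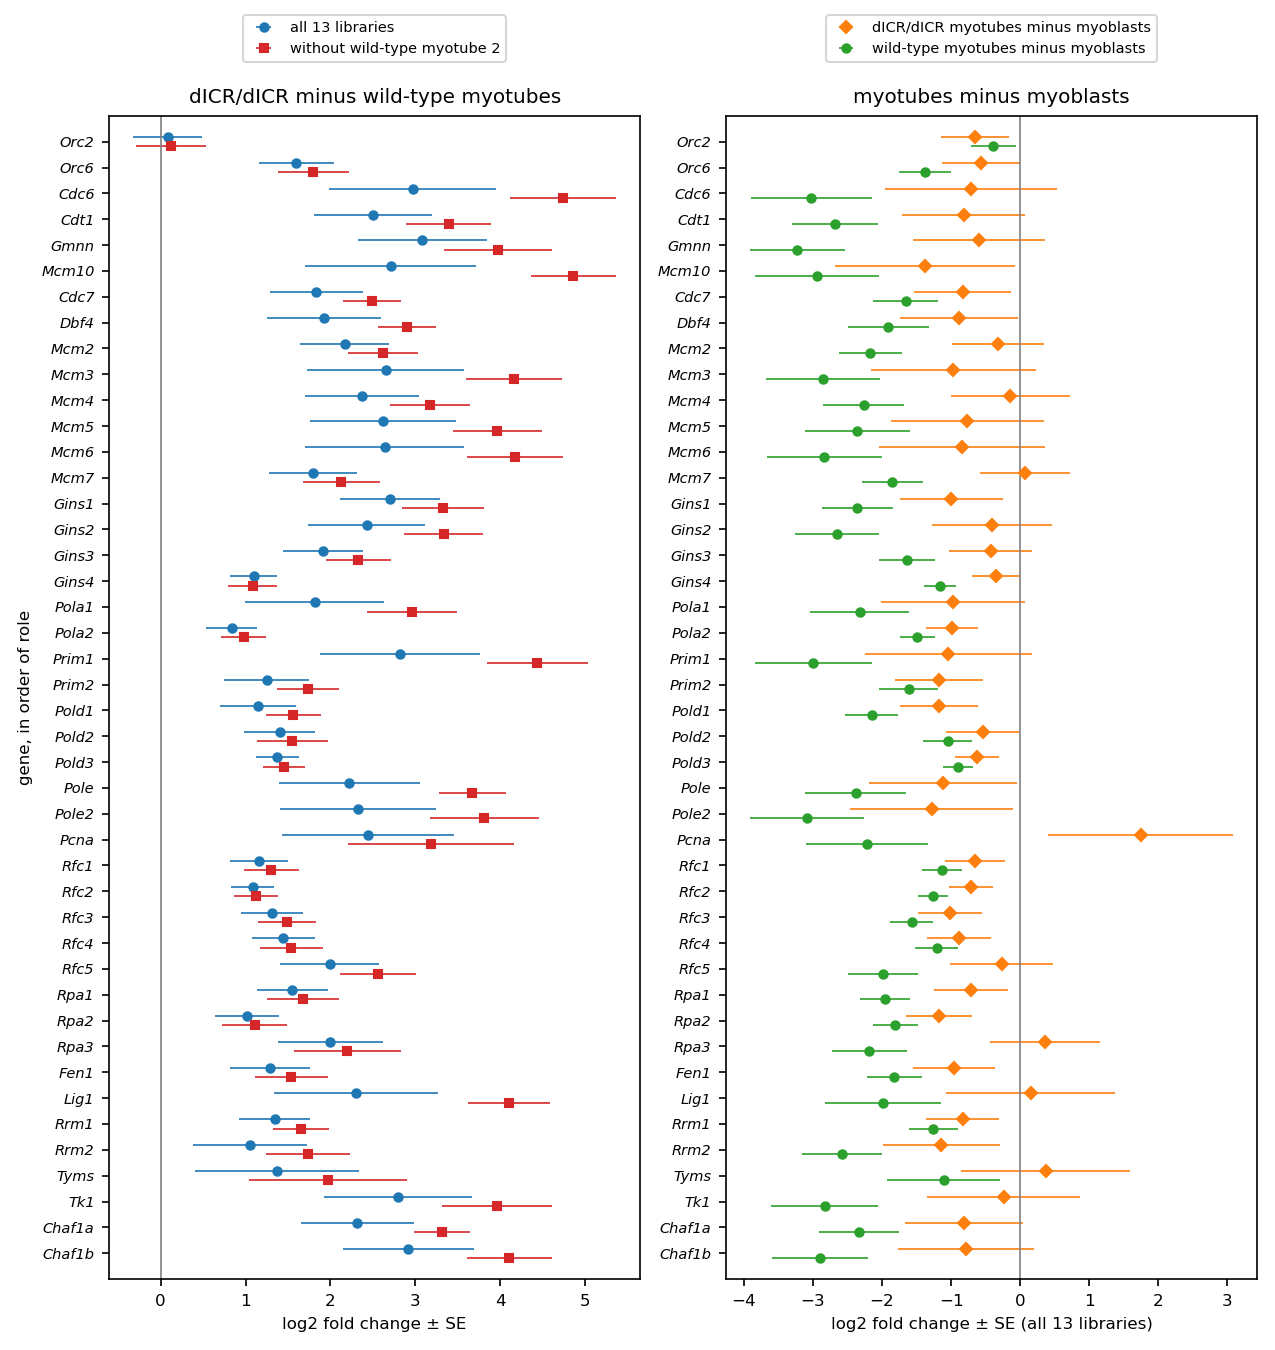
Log2 fold changes with SE of the 44 genes in order of role (edgeR). Left, dICR/dICR minus wild-type myotubes over all 13 libraries (circles) and without wild-type myotube 2 (squares); right, myotubes minus myoblasts in dICR/dICR (diamonds) and in wild type (circles), where all 44 wild-type values lie left of 0 and Pcna lies farthest right in dICR/dICR.

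The third question was whether the genotype already matters in myoblasts. Over all libraries no member passed (edgeR), where 0.0302% of all genes changed; 2 members and 12.1% of all genes had an unadjusted p under 0.05, and DESeq2 called 1 member and 2.41% of all genes. The log2 fold change was positive in 39 of 44 genes, with a median of 0.59 against -0.06 over all genes, between -1.52 for Pcna and 1.34 for Gins1. The 5 negative ones were Pcna, Rpa3, Rrm2, Mcm7 and Tyms. In 19 of 44 genes both dICR/dICR myoblasts lay above all 4 wild-type myoblasts, where 14.2% of all genes did.

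Both dICR/dICR myoblasts are shallow, and the answer depended on which wild-type myoblasts they were set against. Against wild-type myoblasts 3 and 4, also shallow, both dICR/dICR myoblasts were higher in 44 of 44 genes. The share of all genes with that pattern was not counted, so 44 of 44 is not read as particular to these genes. The median log2 fold change of the members within the shallow set was 1.19. In a model of all 13 libraries 1 gene rose (1.94% of all genes), Pold3, by 1.29 ± 0.31 (adjusted p = 0.0385, edgeR). In a fit of these 4 libraries alone 35 of 44 rose (12.5% of all genes), with the spread taken only from within each close pair. Against wild-type myoblasts 1 and 2, which are deep, 25 of 44 genes were higher in dICR/dICR myoblasts and the median difference was 0.14 log2 units. Wild-type myoblasts 3 and 4 were themselves lower than 1 and 2 in 44 of 44 genes, by a median difference of -0.97. For these differences from wild-type myoblasts 1 and 2 the share of all genes was not counted either. Ddx3y was high in both dICR/dICR myoblasts and at most 0.247 CPM in wild-type myoblasts 3 and 4, and the summed muscle differentiation genes were 4815 and 2281 CPM in dICR/dICR myoblasts 1 and 2, against 13460 and 14060 CPM in wild-type myoblasts 3 and 4. Genotype cannot be told apart from these differences within the shallow set.

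The fourth question was the change on differentiation in dICR/dICR cells. No member passed over all libraries (edgeR), where 0.145% of all genes changed; 4 members and 19.2% of all genes had an unadjusted p under 0.05, and DESeq2 called 1 member and 6.92% of all genes. The median log2 fold change was -0.78, against 0.00 over all genes and between -1.37 for Mcm10 and 1.74 for Pcna. Positive values were those of Pcna (1.74 ± 1.34), Tyms (0.37 ± 1.22), Rpa3 (0.36 ± 0.79), Lig1 (0.15 ± 1.23) and Mcm7 (0.07 ± 0.65). Both dICR/dICR myotubes lay under both dICR/dICR myoblasts in 24 genes, where 29.1% of all genes did, and above them in 1 gene, where 30% did. The myotubes are all deep and the myoblasts all shallow, so differentiation in dICR/dICR and depth set cannot be told apart in these libraries. With the depth set as a term, whose size comes from the wild-type libraries, all 44 were negative, the median was -1.67 and 3 genes fell (Orc2, Pola2 and Rrm2), where 2.84% of all genes did.

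The direct test of whether differentiation changed replication genes differently in dICR/dICR than in wild type called no member, and no gene of the 16537 passed, 0% (edgeR); limma voom and DESeq2 called no member either, where DESeq2 called 0.377% of all genes. At an unadjusted p under 0.05 there were 5 members and 9.94% of all genes. The difference was positive in 43 of 44 genes, with a median of 1.40 against 0.04 over all genes, from -0.27 for Orc2 to 3.96 for Pcna. With the depth set as a term the median was 0.52 and 36 of 44 were positive, and without wild-type myotube 2 the median was 2.15 with 28 members and 13.7% of all genes at an unadjusted p under 0.05. That no gene passed in dICR/dICR and 39 passed in wild type is therefore not shown to be a difference between the genotypes.

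The depth set term, whose size comes from the wild-type libraries, was read for these genes too. Its fitted difference, shallow minus deep, was negative in all 44 members, with a median of -1.05 against -0.01 over all genes. Single libraries were less uniform. In wild-type myoblasts the shallow libraries (mean log2 CPM of the members 5.21 and 5.07) lay under the deep ones (6.20 and 6.22). In wild-type myotubes the shallow libraries (2.98 and 2.66) lay between deep ones (3.44, 4.93 and 2.53). By this term 11 of the 44 were called lower and 0 higher, where 28.6% of all genes were called in either direction (edgeR). The share of all genes called lower was not counted, so the members cannot be compared with all genes in that direction. Pcna stood lowest at -3.19 ± 0.39 (adjusted p = 6.32e-05, edgeR), then Tyms at -2.85 ± 0.50 (adjusted p = 0.00116, edgeR). Rpa3 stood at -1.78 ± 0.28 (adjusted p = 0.000581, edgeR) and Mcm7 at -1.30 ± 0.26 (adjusted p = 0.0027, edgeR). Rfc2, at -0.02, and Pold3, at -0.11, differed least. With this term in the model the genotype effect in myotubes had a median of 1.56 and 6 members rose (1.37% of all genes). The term cannot be told apart from the Ddx3y difference, since every shallow wild-type library had at most 0.462 CPM of Ddx3y. Within the deep set the median was 1.55 and again 6 rose (1.81% of all genes), namely Gmnn, Mcm7, Pold3, Pcna, Rfc2 and Rpa3. A fit of the deep libraries alone, without the spread of the other libraries, called no gene higher (0% of all genes).

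**Figure D4:**
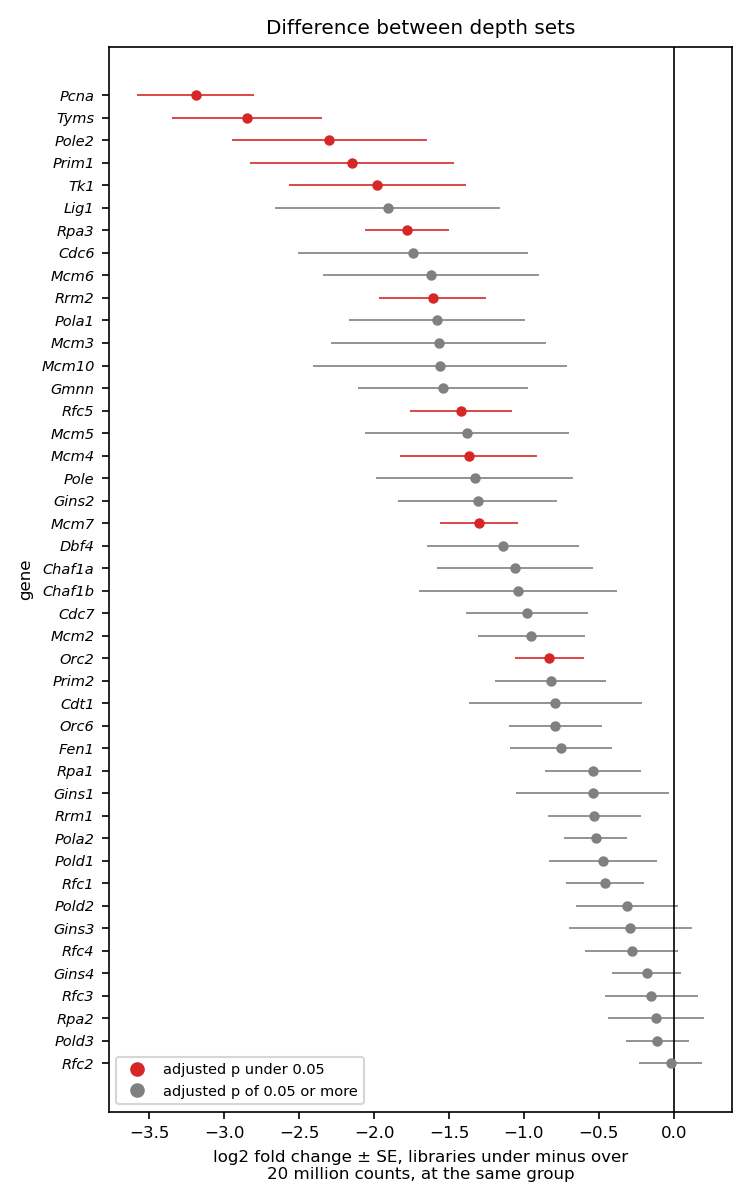
Log2 fold change with SE of each of the 44 genes between libraries under and over 20 M counts at the same group (edgeR, depth set as a term), ordered by size, with red for an adjusted p under 0.05. All 44 points lie left of 0, from Pcna at -3.19 to Rfc2 at -0.02, and 11 are red.

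Other genes of replication were read from a further list of 46 origin, fork, nucleotide, chaperone and topoisomerase genes. In wild-type differentiation 25 of them fell and 1 rose, with a median of -1.63, where 10.2% of all genes fell and 8.86% rose. The gene that rose was Top1, the topoisomerase that relaxes DNA ahead of forks and of transcription, by 1.24 ± 0.25 (adjusted p = 0.00652, edgeR). In the genotype effect in myotubes 42 of 46 were positive with a median of 1.56, and 1 rose, where 0.333% of all genes did. It was Dctd, a deaminase on the route to thymidylate, which rose by 2.46 ± 0.42 (adjusted p = 0.0322, edgeR). No gene of that list passed in the genotype effect in myoblasts, in dICR/dICR differentiation or in the difference between genotypes.

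Of 13 regulators of proliferation and S phase, 6 fell and 1 rose in wild-type differentiation, where 10.2% of all genes fell and 8.86% rose. All 13 were positive for the genotype effect in myotubes, with 1 called, where 0.333% of all genes rose. That gene was Ccne1, cyclin E1, which drives entry into S phase. It rose by 2.24 ± 0.40 (adjusted p = 0.035, edgeR). Ccnd1, the growth factor dependent cyclin D1, fell on differentiation in both genotypes, by 3.44 ± 0.54 in dICR/dICR (adjusted p = 0.0351, edgeR) and by 4.39 ± 0.36 in wild type (adjusted p = 0.000141, edgeR). Mki67, a marker of cycling cells, had 481.9 and 237.3 CPM in dICR/dICR myotubes, against 14.0, 246.2, 7.17, 7.39 and 5.09 CPM in wild-type myotubes. Wild-type myotube 2 thus lay at the level of dICR/dICR myotube 2, and the other 4 wild-type myotubes far below. These genes are not members and were chosen here after their values were seen.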

How the data were processed

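RNA-seq of 13 libraries was read from 1 deposited table of raw, unscaled counts for each gene. The authors used TopHat2, the mm9 assembly and HTSeq, per the submitters' processing notes. The sources used here name neither versions nor annotation, counting mode or use of strand. Every library column matched a sample title, and no 2 replicate libraries were alike within counting error (chi-square per degree of freedom 4.67 to 368.8). By this measure wild-type myoblasts 1 and 2 (39.8) and 3 and 4 (4.67) formed close pairs, against 363.5 to 368.8 between the pairs. Wild-type myotubes 4 and 5 stood at 21.9, against 245.9 to 324.1 for the other pairs of wild-type myotubes.

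The analysis in R 4.3.3 used edgeR 4.0.16, with its filterByExpr rule by group (at least 10 counts, at least 15 in total), TMM factors, and 1 quasi-likelihood model of 4 group means over all 13 libraries, with two-sided tests and Benjamini-Hochberg adjustment. Log2 CPM per library used a prior count of 2. The script was tested on simulated data.

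Members and lists were chosen with earlier results of these data known. Named genes are, per role, the member with the most counts and that with the largest genotype effect in myotubes, every member called for genotype, the 5 lowest adjusted p in wild-type differentiation, members of opposite sign, and Rpa2, Rfc1 and Orc2. Alternatives were DESeq2 1.42.0, limma 3.58.1 voom, other scalings, no filter, the depth set as a term or contrasts within it, the replicate block, and each library left out. Mymk and Adgre1 have no row under those symbols. Exon overlaps come from the GENCODE annotation and promoters from RefSeq, both of GRCm38 and used for names, neighbours and sequence only.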

Additional observations from a re-analysis of the deposited data

Results flagged for a closer look

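Dixon's test was read for 25 measures (CPM of the 24 named genes and the mean log2 CPM of the members) in the 2 wild-type groups. In 8 of 50 sets of values a library lay far from the rest of its group. Chance gives about 1 in 20 for a single set, but these sets share the same libraries and are not independent. The count therefore cannot be set against that rate. The mean of the members was not flagged in wild-type myotubes (gap ratio 0.62, critical value 0.71). In each of the 8 flagged sets it was wild-type myotube 2 that stood high: Gmnn at 9.165 CPM, Pola1 at 48.26, Prim1 at 20.33, Lig1 at 37.21, Tk1 at 20.53, Chaf1a at 38.77, Chaf1b at 13.62 and Rrm2 at 133.4 CPM. The groups of 2 dICR/dICR libraries are too small for this test.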

How the results depend on the processing

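For the genotype effect in myotubes, the 1 called member became 22 with DESeq2 (2.49% of all genes higher), 10 with limma voom (1.61%), 6 with the depth set as a term and 6 within the deep set, and 0 without the filter, with the replicate block, with the 2 groups alone and with the deep libraries alone. Leaving out each library gave 0 to 34 called and a median of 1.31 to 2.53. For wild-type differentiation, 9 were called within the shallow set and 14 with the deep libraries alone (19.9% of all genes in either direction). Leaving out each library gave 19 to 42, lowest without wild-type myoblast 2, 20 without wild-type myoblast 1 and highest without wild-type myotube 2. The median was then -2.61 to -1.80. For the genotype effect in myoblasts, DESeq2 called 1, the contrast within the shallow set 1 and the shallow libraries alone 35; the median with the replicate block was -0.03, and 0.43 to 0.82 with each library left out, with 0 called. For differentiation in dICR/dICR, DESeq2 called 1, the depth set term 3 with a median of -1.67, and the 2 groups alone 5. The share of all genes called with the 2 groups alone is not given here, so those 5 cannot be judged. Leaving out each library gave a median of -1.42 to -0.40. The difference between genotypes had a median of 0.52 with the depth set term and 0.90 to 2.15 with each library left out, with 0 called. Where a left-out library left 1 in an arm, it was assumed to vary like the others. The labels do not say that same-numbered replicates share an animal or day. Their deviations from the group means correlated over 0.1 in 5 of 14 pairs, from -0.41 to 0.52. Between wild-type myoblasts and myotubes 1 to 4 the correlations were 0.43, 0.52, -0.41 and 0.52. Pair 3 joins a shallow to a deep library, so these values cannot tell a shared origin from depth set. The replicate block is therefore not read as a paired analysis. The causes were not tested.

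Orc2 changed sign. Its genotype effect in myotubes was -0.45 with the replicate block, -0.23 with the depth set term, -0.09 within the deep set, -0.10 with the deep libraries alone, and -0.14 to 0.28 with each library left out; its change in wild-type differentiation was 0.07 within the shallow set and 0.08 with the shallow libraries alone. Over 24 named genes, 528 of 600 values in wild-type differentiation and 489 of 552 in the myotube genotype effect kept direction and side of the threshold; 2 and 7 changed sign. Counts as low as 2 per library (Gins2 in a shallow wild-type myotube) limit the precision of the lowest genes.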
